A study of Anopheles gambiae with 104 samples.

Results

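In bodies of female Anopheles gambiae mosquitoes kept in a light:dark cycle, 59 of 16884 Anopheles probe sets followed a strong daily rhythm with a fitted peak in the morning that was not matched by a strong rhythm in heads. A probe set is a group of array probes read as 1 transcript signal. The members were chosen by a 24 h cosine fit to the time point means of the light:dark arms. A rhythm was called strong when its amplitude, the fitted distance between mean and peak, was at least 0.5 on the log2 scale, the fit took up at least 0.7 of the variance (R2) and the arm mean was at least 4. Members were strong in bodies, not strong in heads and peaked in bodies between zeitgeber time (ZT) 2 and under 6. Of the 380 probe sets that were strong in bodies in the light:dark cycle, 265 were not strong in heads, and 59 of those peaked in this window. Values from the light:dark arms therefore describe the choice and were not tested.

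The 4 arms were bodies in constant dark (DD), bodies in the light:dark cycle (LD), heads in DD and heads in LD, each with 26 arrays, 2 at each of 13 time points 4 h apart over 48 h. All arms shared mated females of the Pimperena strain, S form, that had not been blood fed and were 7 to 9 days old at the start, in pools of 20 to 30 mosquitoes per time point. Heads kept mouthparts and antennae, and bodies kept the appendages, so bodies mix thorax, abdomen and legs. In LD, 11 h of full light had dawn and dusk transitions of 1 h. ZT12 is the hour of lights off, ZT0 the end of dawn, and circadian time (CT) 0 in DD is subjective dawn, carried over from the previous LD cycle. LD was sampled from ZT12 to ZT60 and DD from CT0 to CT48.

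Daily rhythms of insect transcripts are driven by light itself and by circadian clocks, feedback loops of transcription factors and their inhibitors that keep running in the dark. Such clocks tick in the brain and in tissues of the body such as gut, fat body and excretory tubules. Anopheles gambiae flies, mates and feeds at night and rests by day, so a morning peak falls at the start of its resting phase. Constant dark separates rhythms that persist without light from those seen only with it.

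Probe sets are given by their array names, since the files and the reference table used here pair none of them with a gene, and 0 of the 59 members matched an identifier there. No function, gene list or sequence is therefore given, and the labelled tissues could not be checked against marker genes. The first part of a name is a chromosome arm. By it 30.5% of members lay on 2L against 22.4% of all probe sets tested in bodies, 28.8% against 29.6% on 2R, 16.9% against 15.2% on 3L, 15.3% against 20.6% on 3R, and 1.69%, which is 1 member, against 7.52% on X. The 59 probe sets belonged to 56 array clusters, 3 of which held 2 members each, so those pairs may read the same transcript.

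The arrays of a time point correlated at 0.99 or above in every arm except for the pair at ZT52 in bodies, where r was 0.9899 and the SD between arrays 0.41 on the log2 scale. No label tells whether each array had its own pool, so the gap between the 2 arrays of a time point may be technical only. The tests used the 13 time point means, so their p-values rest on the scatter of time points around the fitted cosine. The control probe sets for dap, a bacterial transcript that is spiked into RNA, had a 3′ minus 5′ signal difference of 3.30 ± 0.23 on the log2 scale in bodies in DD and 1.81 ± 0.18 in bodies in LD (SD, n = 13 time points each). This control thus moved with the regime, its part in any DD minus LD difference of levels was not tested, and which step differed is not known. In whole tissues, fewer cells of a type and less RNA per cell cannot be told apart.

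In bodies in LD the members moved as a block: low through the night, up at dawn, highest at mid-morning and down again by lights off. The highest hour of the day was ZT4 for 43 members, ZT8 for 11 and ZT0 for 5. The lowest was ZT12 for 32, ZT16 for 21 and ZT20 for 6. All 59 were higher at ZT0 than at ZT20, by a median of 0.82 on the log2 scale, and 41 had their steepest rise there. At ZT0, the end of the dawn transition, 55 of 59 already stood above their own mean at ZT24 and 55 at ZT48. All 59 were lower at ZT12 than at ZT8, by a median of 1.33, and this was the steepest fall for 53 members. Over probe sets tested in bodies, the median step from ZT32 to ZT36 was -0.037, against -1.26 for the members. The rule chose the members on these arrays for a large rhythm with a morning peak. Their shared course and this contrast thus follow from the choice and are a description only.

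**Figure D1:**
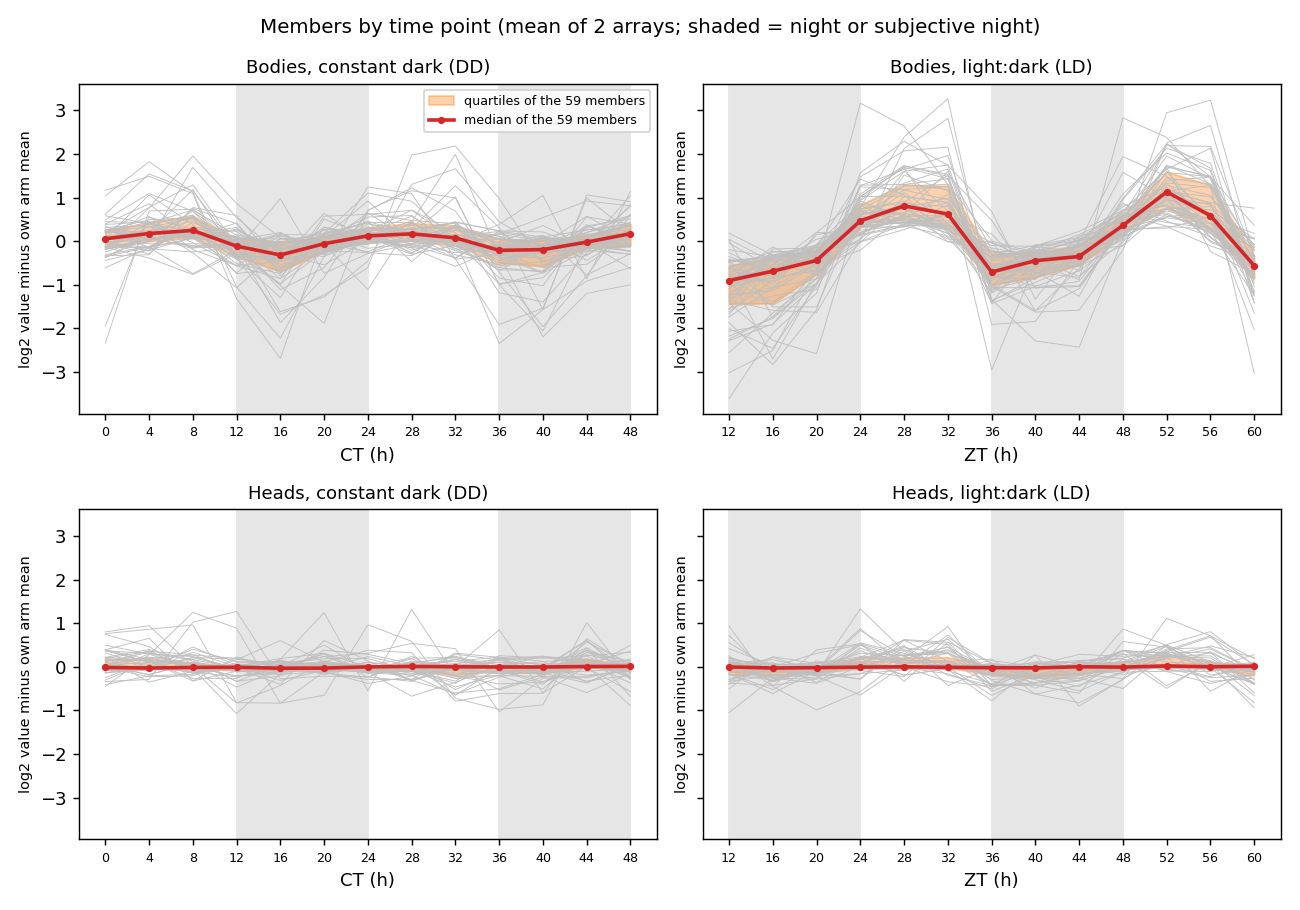
Log2 values of the 59 members by time point (y axis, each member minus its own mean of the arm) against hours (x axis), for bodies (top) and heads (bottom), in DD (left) and LD (right). Thin lines are members, the red line their median and the band their quartiles; the night hours are shaded. The bodies LD median swings between -0.90 at ZT12 and 1.13 at ZT52, while the bodies DD median stays between -0.32 at CT16 and 0.25 at CT8 and the heads medians lie near 0.

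Fitted peak over trough in bodies in LD had a median of 3.55-fold and a minimum of 2.01-fold. The fitted trough of 7 members lay under 3.78, the level below which bodies signals are not told from background here (the 95th percentile of probe sets for the parasite Plasmodium falciparum, which shares the array). With troughs raised to that cutoff, the range was at least 4-fold in 22 members, at least 8-fold in 14 and at least 16-fold in 5. Peaks fell between ZT2 and 3 for 19 members, between ZT3 and 4 for 18, between ZT4 and 5 for 11 and between ZT5 and 6 for 11. Replicate 1 and replicate 2 arrays fitted alone gave peaks within 2 h of each other for 58 of 59 members, with a median gap of 0.28 h. The amplitude reached 0.5 in each replicate alone for 53 members, and the R2 reached 0.7 in each for 32. Both replicates entered the means that chose the members, so this likeness follows in part from the choice. At the edge of the rule, Ag.2L.328.2_at entered with an amplitude of 0.503, and Ag.2R.1838.0_CDS_at stayed out with 0.492. The 2 values differ by less than the median gap of 0.0859 between the replicates' amplitudes, so membership near the edge is arbitrary.

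The largest fitted amplitude in LD belonged to Ag.UNKN.96.1_CDS_a_at, a probe set with no chromosome arm in its name. Its 8 arrays of ZT4 and ZT8 read 7.92, 8.68 and 9.02 on the log2 scale (lowest, median, highest) in bodies in LD, and those of ZT16 and ZT20 read 2.76, 3.28 and 3.33. The night values lie under the cutoff of 3.78, so the full size of its swing is not known. The second by amplitude, Ag.2L.172.1_a_at, was at 7.27, 7.75 and 9.42 by day and 3.25, 5.25 and 6.29 at night in bodies in LD. With its trough raised to the cutoff, its fitted range of at least 43.7-fold was the widest of the members by that bound. Its pattern was not a plain cosine: the arrays read 3.25 and 3.25 at ZT36, 6.29 and 5.11 at ZT40 and 9.02 and 9.06 at ZT48. It lay under the cutoff at ZT12, ZT36 and ZT60 and stood well above it at ZT20 and ZT44, before dawn. The 2 nights disagreed in between: ZT16 and ZT40 averaged 4.70 with an SD of 1.41 between the 2 time points. The ZT16 mean was also under the cutoff.

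Of the 59 members, 28 had a mean over the heads arrays under the heads cutoff of 3.75, so their heads signal is not told from background. The other 31 were measured in heads. Members dim in heads had the larger swings in bodies in LD, with a median of at least 7.23-fold, troughs at the cutoff where they fell under it, against 2.61-fold for members measured in heads. All 5 members with a range of at least 16-fold by that bound were dim in heads. In heads in LD, 29 members were kept from a strong call by a mean under 4, 27 by an amplitude under 0.5 and 3 by an R2 under 0.7. Among the 31 measured in heads, the heads LD amplitude had a median of 0.32, was at least 0.25 in 20 and ranged from 0.027 to 0.77, and the heads LD peak lay within 3 h of the bodies LD peak for 19. Whether heads were rhythmic in LD was not tested, and missing the rule there does not show that a rhythm was absent.

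Constant dark asks whether the rhythm persists without light, in arrays the rule did not use. In bodies in DD 18 of 59 members (30.5%) were called rhythmic by limma's F-test of the cosine terms, at an adjusted p under 0.05 over 7325 probe sets, against 6.69% of all tested. All 18 peaked between CT0 and CT12, while 2.47% of all tested were called with such a peak. All members passed the filter on dim probe sets, which the rule's minimum of 4 made likely. Counting the 18 called, 33 of 59 members had an unadjusted p under 0.05 (limma) and 26 did not, against 21.4% of all tested with such a p. Peak over trough of the 18 ranged from 1.37-fold to 11.4-fold, with a median of 2.47-fold in DD.

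Ag.2R.2139.0_CDS_at had the smallest adjusted p in bodies in DD. The pair of arrays read 10.84 and 10.92 on the log2 scale at CT4, 7.31 and 7.59 at CT20, 10.55 and 10.57 at CT28, and 7.48 and 7.27 at CT40. The 8 arrays of CT4 and CT8 and their counterparts a day later were at 9.87, 10.53 and 10.92 (lowest, median, highest), and those of CT16 and CT20 at 7.27, 7.95 and 8.55. Day and night arrays did not overlap, and the swing repeated on the second day without light. Its amplitude was 1.56 ± 0.15 (SE) in DD (adjusted p = 0.000166, limma) and its peak was at 4.78 h, against an amplitude of 1.62 and a peak at 5.33 h in LD. Heads arrays in DD lay between 4.02 and 4.47.

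Ag.2R.46.0_CDS_a_at came second, with day arrays at 7.32, 7.49 and 8.20 and night arrays at 5.29, 6.11 and 7.13 in bodies in DD. Here too the groups did not overlap. Its amplitude was 1.07 ± 0.13 (SE) in DD (adjusted p = 0.00071, limma), against 2.15 in LD, and the peaks were at 3.66 h in DD and 3.08 h in LD. Another probe set of its cluster, just outside the member rule with an R2 of 0.696, had an amplitude of 0.83 in DD and a peak at 3.06 h (adjusted p = 0.0104, limma).

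The 2 members with the largest LD amplitudes parted in the dark. Ag.UNKN.96.1_CDS_a_at was called in bodies in DD, with an amplitude of 1.75 ± 0.25 (SE; adjusted p = 0.00247, limma), against 3.12 in LD. Its peak came at 2.17 h in DD and at 5.45 h in LD. In DD the arrays had climbed to 6.71 and 6.89 at CT20, and in LD they stood at 3.25 and 2.76 at ZT20. Ag.2L.172.1_a_at lay between 2.37 and 3.23 on all 26 bodies DD arrays, under the background cutoff, with an amplitude of 0.03 (adjusted p = 0.959, limma). At that level a rhythm was not detectable. Of the 5 members with swings of at least 16-fold in LD, 2 were called in bodies in DD.

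**Figure D2:**
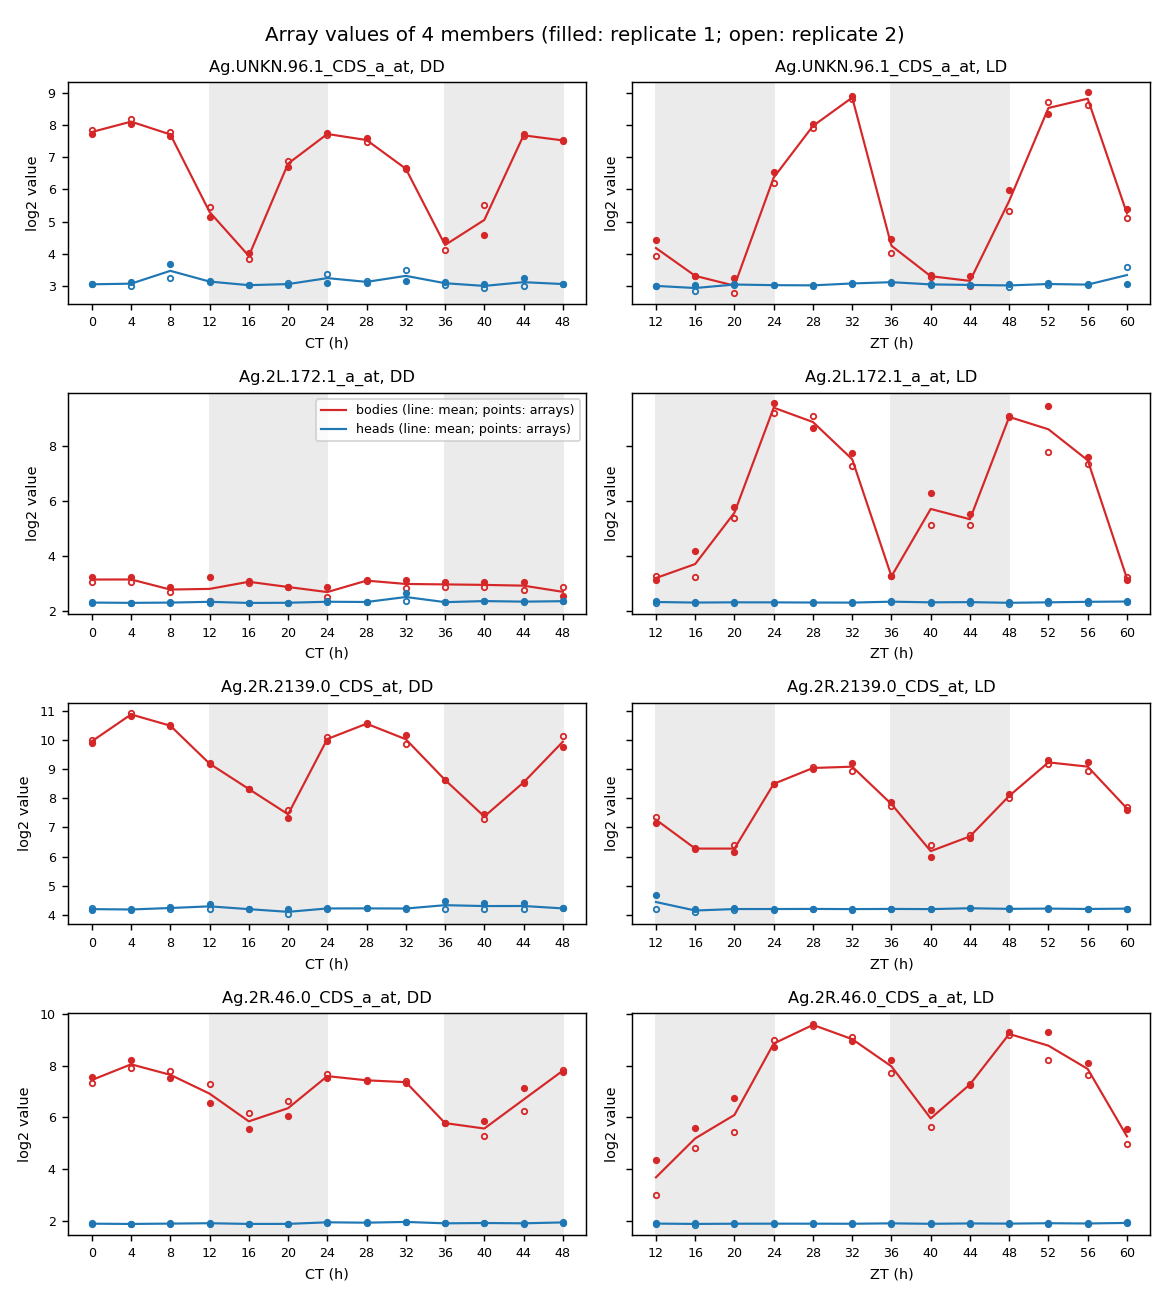
Array values (log2, y axis) of the 2 members with the largest bodies LD amplitude and the 2 with the smallest adjusted p in bodies DD, against hours (x axis), DD left and LD right; red is bodies, blue is heads, filled and open points are the 2 arrays and lines their mean, and night is shaded. Bodies values of Ag.2L.172.1_a_at lie between 2.37 and 3.23 in DD and reach 9.56 in LD, while the other 3 swing in both regimes.

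Most members were higher by day than by night in bodies in DD, by less than in LD, and 7 were not. The mean of CT4, CT8, CT28 and CT32 was above that of CT16, CT20, CT40 and CT44 in 52 of 59 members (88.1%), against 47.3% of all tested. The 4 day values were all above the 4 night values in 15 members (25.4%), against 3.74% of all tested. The median day minus night difference was 0.26 on the log2 scale over members and -0.011 over all tested. The step from CT8 to CT12 fell in 49 of 59 members on the first day, against 47.0% of all tested, and from CT32 to CT36 in 48 on the second, against 45.4% of all tested. Over members the median of that step was -0.43 on the first day in DD and -0.31 on the second, and over all tested 0.016 and 0.027. In LD the members' medians were -1.26 and -1.10.

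RNA control probe sets also moved over the day in bodies in DD. The Gapdh 3′ minus 5′ difference, which grows as RNA or its labelling is less complete, averaged 4.67 at hour 0, 3.91 at hour 4, 3.62 at hour 8, 4.56 at hour 12, 4.51 at hour 16 and 4.57 at hour 20. The members' median was above its own mean at hours 0, 4 and 8 and below it at hours 12, 16 and 20. The Gapdh difference fitted a 24 h cosine with an amplitude of 0.47, an R2 of 0.33 and a peak at 19.1 h. For actin the amplitude was 0.24, the R2 0.25 and the peak 20.4 h. In bodies in LD the Gapdh fit had an R2 of 0.28 and a peak at 9.76 h, and the actin fit an R2 of 0.09. In heads in DD the amplitudes were 0.61 for Gapdh and 0.57 for actin, with R2 values of 0.20 and 0.43. At CT44 in heads the Gapdh difference was 7.54, against a mean of 4.40 over the arm, and the actin difference 5.16 against 3.29. Among 4502 P. falciparum probe sets, limma called 0 in bodies in DD, and 461 (10.2%) had an unadjusted p under 0.05. The part of these in the members' rhythm was not tested.

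Fitted amplitudes were smaller in DD than in LD for 56 of 59 members and less than 0.5 of the LD amplitude for 41. The ratio of DD to LD amplitude had a median of 0.247, and single replicates gave 0.299 and 0.335. Members were chosen for a large LD amplitude, so the ratio carries that choice. In DD the amplitude reached 0.5 in 14 members. Among the 18 called members the DD amplitude was between 0.312 and 1.097 of that in LD, with a median of 0.583, and 1 member had the larger amplitude in DD. All 18 peaked within 4 h of their LD peak and 12 within 2 h. The DD peak minus the LD peak had a median of -0.617 h, with 10 members earlier in DD and a range of -3.60 to 3.86 h.

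**Figure D3:**
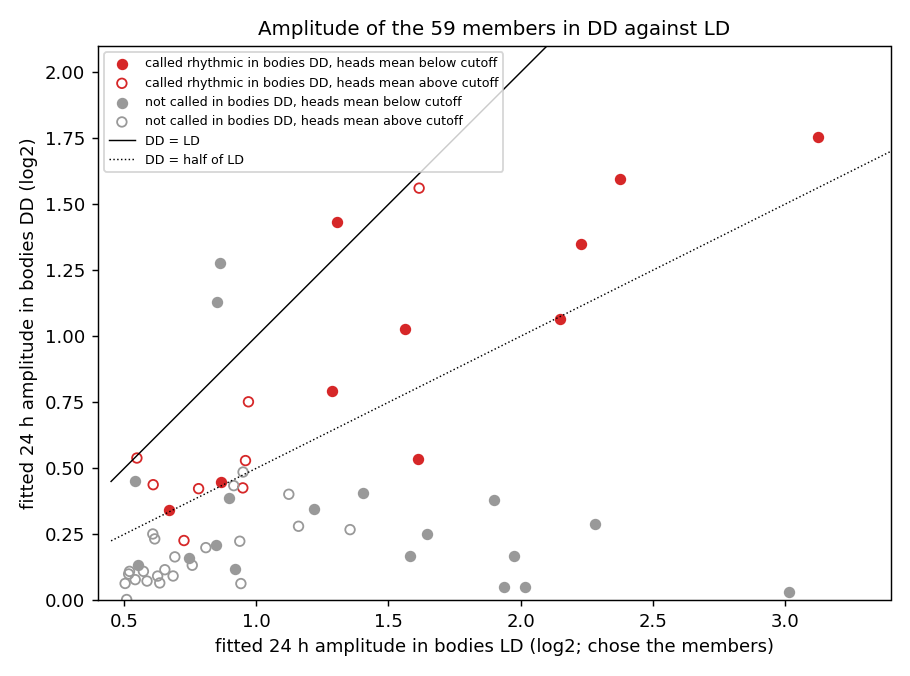
Fitted 24 h amplitude (log2) in bodies DD (y axis) against bodies LD (x axis) for the 59 members; red points were called rhythmic in bodies DD, and filled points have a heads mean below the background cutoff. Most points lie under the solid line of equal amplitude and 41 lie under the dotted line at 0.5 of the LD amplitude.

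Other probe sets strong in bodies only, with peaks at other hours, were called in bodies in DD in 79 of 206 cases (38.3%), so the 30.5% of the members is not higher than theirs. Probe sets strong in both tissues with a bodies peak in the same ZT window were called in bodies in DD in 9 of 19 cases (47.4%). Their differences from the members were not tested, since LD values chose all of these sets.

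The mean level in bodies differed between the regimes as well. It was higher in DD than in LD for 40 of 59 members, by a median of 0.71 on the log2 scale over the 59, against 0.107 over all tested. The median was 1.41 over probe sets strong in both tissues with a bodies peak in the same window. Over other probe sets strong in bodies only it was -0.32. A higher level in DD was thus not particular to the members. Members measured in heads shifted nearly all one way: 30 of 31 were higher in DD, 18 of them at least 2-fold, with a median of 1.19. Members dim in heads were higher in DD in 10 of 28 cases, and 7 were at least 2-fold lower. Ag.3R.55.0_CDS_at averaged 9.87 in bodies in DD and 7.09 in bodies in LD, and its arrays spanned 9.50 to 10.33 in DD and 4.36 to 8.70 in LD. Its amplitude was 0.17 in DD, with an adjusted p of 0.226 (limma), against 1.58 in LD. LD values chose the members, so these shifts are given without a test.

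In heads in DD, 4 of the 31 members measured there were called rhythmic (limma), 12.9% against 8.92% of all tested, and 8 (25.8%) had an unadjusted p under 0.05, against 24.6% of all tested, so the members' share lay near the background. The smallest adjusted p was that of Ag.3L.347.0_CDS_s_at, whose heads DD amplitude was 0.67 ± 0.13 (SE) with a peak at 0.63 h (adjusted p = 0.0123, limma). In bodies in DD its amplitude was 0.07 (adjusted p = 0.928, limma). Heads arrays read 6.41 and 6.74 at CT4 and 4.87 and 4.72 at CT12, while bodies arrays spanned 5.30 to 7.13 with no order by hour. In heads in LD its fit had an amplitude of 0.35, an R2 of 0.84 and a peak at 22.8 h. Its rhythm in DD was not called different between bodies and heads (adjusted p = 0.0537, limma). Ag.2L.1141.0_CDS_a_at had a heads DD amplitude of 0.62 ± 0.14 (SE) with a peak at 8.54 h (adjusted p = 0.038, limma). The heads count was 1 or 2 when any time point other than CT40 or CT48 was left out and 2 on either replicate alone. With those time points left out it was 3.23% or 6.45% of the members tested, against 5.50% to 8.96% of all tested. On single replicates it was 6.45%, against 4.72% and 6.19%.

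The rhythms of bodies and heads in DD were compared directly as bodies minus heads differences at each time point. Among the 31 members measured in both tissues the rhythm differed for 6 (19.4%) at an adjusted p under 0.05 (limma), against 3.33% of all probe sets measured in both. The bodies amplitude was the larger in 5 of these 6. Over all 31 the fitted DD amplitude was larger in bodies for 14 and larger in heads for 17. Another 8 members passed the same test with heads below the background cutoff, where a heads rhythm was not detectable, so for them it adds nothing to the bodies test. With these the count was 14 of 59 (23.7%), against 4.08% of all tested. For Ag.2R.2139.0_CDS_at the difference had an amplitude of 1.58 ± 0.15 (SE; adjusted p = 0.000159, limma). The count over 59 members was 9 without CT12 or without CT24, 6 on replicate 2 alone and 7 on replicate 1 alone. The shares of all tested were then 2.92%, 3.12%, 2.31% and 2.30%, in that order.

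Levels in DD were at least 2-fold higher in bodies than in heads for 16 of the 31 members measured in both tissues (51.6%), against 34.9% of all probe sets measured in both (limma, adjusted p under 0.05). They were at least 2-fold lower for 2 (6.45%), against 10.2%. The median bodies minus heads difference was 1.12 on the log2 scale over these members and 0.55 over all probe sets measured in both. In LD, whose values chose the members, the median difference over these 31 was -0.42. Their median excess in bodies was thus seen in DD and not in LD, and this contrast was not tested. The 28 members dim in heads entered the test through bodies, where they are high, and the rule favoured a low heads mean, so their difference was fixed by the choice and is given only as a bound. With them, 43 of 59 members were at least 2-fold higher in bodies, 27 of them dim in heads, and 2 at least 2-fold lower, where 36.5% and 18.6% of all tested were so called. Of the 30 members with a heads LD mean of at least 4, 15 were at least 2-fold higher in bodies and 2 at least 2-fold lower, with a median difference of 1.02. Quantile normalization over all arrays moved the median of all tested to -0.036. It left 40 members at least 2-fold higher in bodies, against 24.9% of all tested, and 7 at least 2-fold lower.

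Ag.2R.1099.0_CDS_at had the highest difference. Its bodies DD arrays read 11.29, 11.55 and 12.08 (lowest, median, highest) and its heads DD arrays 2.54, 2.65 and 2.84. All heads arrays lay under the cutoff, so bodies exceeded heads at least 230-fold, taking the cutoff as the heads level. Ag.3R.55.0_CDS_at followed at 9.50, 9.85 and 10.33 in bodies and 1.86, 1.89 and 1.92 in heads, at least 69.8-fold. Of the 28 members dim in heads, 23 exceeded heads at least 2-fold by this bound and 12 at least 8-fold.

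At the low end, Ag.2R.848.0_CDS_s_at read 9.26, 9.55 and 9.86 in bodies in DD and 10.46, 10.83 and 11.15 in heads in DD. The difference was -1.30 on the log2 scale, with a 95% interval of -1.43 to -1.17 (adjusted p = 1.39e-11, limma). Ag.2L.2955.0_at differed by -1.28, with an interval of -1.42 to -1.14 (adjusted p = 4.27e-11, limma). Arrays of the tissues did not overlap for either. Both were abundant in heads and yet met the rule for a strong rhythm in bodies in LD alone, with heads LD amplitudes of 0.10 and 0.08.

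**Figure D4:**
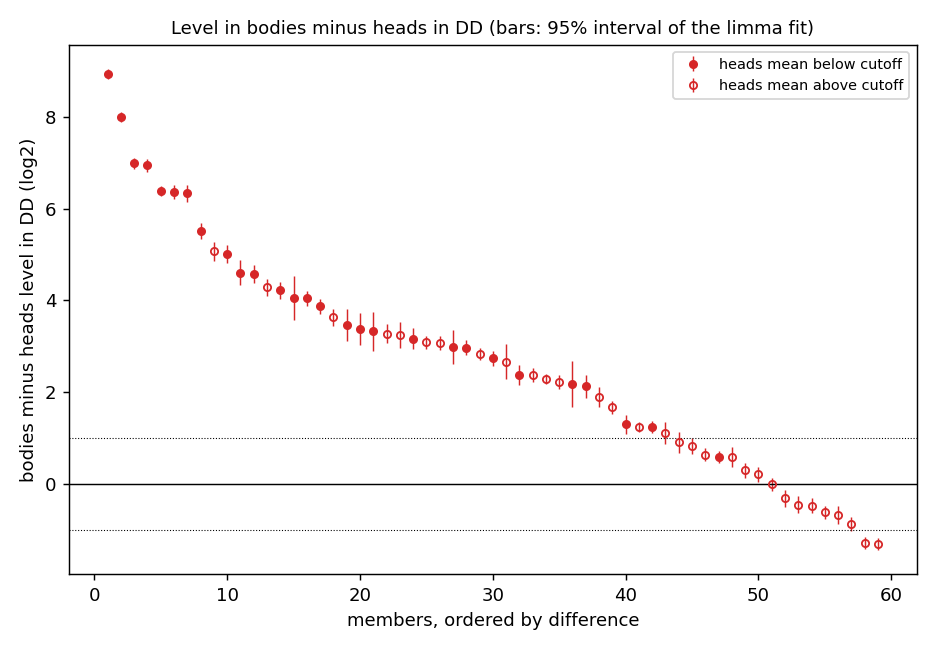
Bodies minus heads level in DD (log2, y axis) with the 95% interval of the limma fit for the 59 members, ordered along the x axis from highest to lowest; filled points have a heads mean below the background cutoff, open points above it, and dotted lines mark a 2-fold difference. The differences run from 8.94 to -1.30, and 43 members lie above the upper dotted line, 27 of them filled, with a heads signal not told from background.

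Probe sets of the same cluster should read overlapping or neighbouring sequence. They were read on the LD arrays that chose the members, so their LD likeness follows in part from the choice and is a description only. Of 17 such partners that were not members, 11 passed the filter in bodies. In bodies in LD 7 of these 11 had a fitted peak in the members' window, ZT2 to under 6, against 28.4% of all tested. The amplitude was at least 0.5 in 6 of the 11, against 9.17% of all tested. In 3 clusters 2 members stood together, and the window of the rule keeps their LD peaks close: 5.45 h and 5.41 h for Ag.UNKN.96.1_CDS_a_at and its partner, 3.76 h and 3.68 h in the second cluster, and 3.59 h and 2.68 h in the third. Both members of the first were called in bodies in DD, with peaks at 2.17 h and 2.51 h, and neither member of the other two clusters was.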

How the data were processed

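The authors deposited log2 signals from GCRMA, per the submitters' processing notes, a method that corrects background, equalizes arrays and condenses probes into probe sets. Labelling, per the labels' protocols, started at the 3′ end, so degraded RNA lowers 5′ probes. No version of GCRMA is stated, nor is the set of arrays it was run on.

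The 2 arrays of a time point were averaged. Rhythm in DD was tested with limma 3.58.1 in R 4.3.3 (lmFit, eBayes) as the F-test of 24 h cosine and sine terms over 13 time point means, and bodies against heads as differences per time point, since both came from the same mosquitoes per the labels' protocols. Anopheles probe sets entered when their tissue mean exceeded the 95th percentile of P. falciparum probe sets, which left 7325 in bodies, 7188 in heads and 8438 in either. P-values were adjusted by Benjamini-Hochberg over all of these with a threshold of 0.05. The number of arrays limits the precision.

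The members and the tests were chosen with earlier results of these data known. Named probe sets are the first 2 by bodies LD amplitude, by adjusted p in bodies DD and in heads DD, and at each end of the bodies minus heads level, with those at the amplitude edge. Alternatives covered replicates, time points, filters, scaling, the member rule and fits of single arrays. Counts over probe sets measured in both tissues and LD ranges with troughs raised to the cutoff were added after seeing the data. The fits were tested on simulated data. Gene lists could not be assigned, since 0 probe sets matched the 15165 genes of the reference table.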

Additional observations from a re-analysis of the deposited data

Results flagged for a closer look

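The rhythm differed between bodies and heads in DD for 14 of the 59 members by the test of the difference itself (limma, adjusted p under 0.05), in arrays that had not chosen them. For 8 of the 14 the heads mean was below the background cutoff, so the test repeats that of bodies alone, and 6 of the 31 members measured in both tissues differed (19.4%, against 3.33% of all probe sets measured in both). The bodies amplitude was the larger in 5 of these 6. Gapdh and actin 3′ minus 5′ differences also varied over the day in bodies in DD, with R2 values of 0.33 and 0.25 for a 24 h cosine. In heads in DD the R2 values were 0.20 and 0.43, and both differences were highest at CT44, at 7.54 and 5.16. The part of these controls in this count was not tested.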

How the results depend on the processing

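The DD arms held 2 arrays per time point and 13 time points, the smallest amplitude called in bodies in DD was 0.23, and levels under the cutoffs of 3.75 in heads and 3.78 in bodies were not told from background. Fits of single arrays treat the 2 arrays of a time point as independent. They called 29 members rhythmic in bodies in DD with a replicate block and 29 without it, 10 and 10 in heads, and 30 and 29 for the difference in rhythm. The shares of all tested rose too, to 15.0%, 23.3% and 10.5% with the block and 15.3%, 23.0% and 10.4% without it. In heads the 10 were 32.3% of the members tested there. In DD the replicate numbers did not pair the samples, since deviations of the same number correlated above 0.1 in 27 of 78 pairs of time points in bodies and 35 of 78 in heads. In LD, whose arrays chose the members, such correlations passed 0.1 in 66 of 78 pairs in bodies and 78 of 78 in heads. There, arrays of the same replicate number thus shared deviations, with a median correlation of 0.17 in bodies and 0.47 in heads. With single replicates left out, the counts were 12 to 14 in bodies, 2 in heads, 43 to 44 for bodies at least 2-fold above heads, and 6 to 7 for the difference in rhythm. The shares of all tested were then 3.65% to 3.75%, 4.72% to 6.19%, 36.3% to 36.9% and 2.30% to 2.31%. Leaving out single time points gave 14 to 19, 1 to 4, 43 to 43 and 9 to 15. The shares of all tested were then 4.83% to 7.24%, 5.50% to 9.52%, 36.3% to 36.8% and 2.92% to 4.31%. In heads with a time point left out, counts of 1 or 2 were 3.23% or 6.45% of the members tested there, under the share of all tested each time. Without the filter 1 member was called in heads and 7 differed in rhythm, against 2.42% and 1.25% of all tested. With quantile normalization 7 were called in heads, against 10.1% of all tested. An R2 of at least 0.8 in the member rule left 33 members, with 2 called in heads, 26 at least 2-fold above heads and 8 that differed in rhythm. A peak window of ZT 1 to under 7 gave 78 members, of which 29 were called in bodies and 23 differed in rhythm. The member count was 52 to 54 on single replicates, which shared 39 and 41 with the 59, and 52 to 81 with a time point left out. The median DD to LD amplitude ratio was 0.299 to 0.335 on single replicates, 0.278 after quantile normalization and 0.251 to 0.325 with a time point left out. The median peak shift was -0.426 to -0.417 h and -0.722 to -0.344 h on the same terms. Choosing members without ZT52, an alternative added after seeing the data, gave 55 members, of which 20 were called in bodies and 3 in heads, and 15 differed in rhythm. Over all results and alternatives, those named here included, 105 values stayed near the main result and 56 did not. Near meant within 1.5 times the main count or, for a median, nearer than the SD of the 2 single-replicate medians. For the peak shift that SD was small, since the replicates gave -0.426 h and -0.417 h. A shift of -0.607 h without CT0 thus counted as moved from the main -0.617 h. Of the named heads rhythms, Ag.3L.347.0_CDS_s_at kept its call in 18 of 20 alternatives and Ag.2L.1141.0_CDS_a_at in 10 of 20. The cause of these changes was not tested.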

Other observations

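The members moved together in LD and less so in DD. Over 1711 pairs of members, the correlation of time point means had a median of 0.23 in bodies in DD and 0.83 in bodies in LD, as a description of profiles that share arrays and were chosen for the LD phase. In bodies in LD, 46 of 59 members were higher at ZT52 than at ZT28, and the pair of arrays at ZT52 was the least alike of that arm. Of the 18 members called in bodies in DD, 10 were dim in heads and 8 were measured there. Of the 21 members with a mean at least 2-fold higher in DD than in LD, 7 were called in bodies in DD (limma). Of the 7 with a mean at least 2-fold lower in DD, 3 had a bodies DD mean under the cutoff of 3.78, where a rhythm was not detectable.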
